A study of Mus musculus with 6 samples.

Results

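The loci described here are 6 genes of the Hippo pathway and its best-known targets, each taken as a fixed window of mm9: Ccn1 (Cyr61), Ccn2 (Ctgf), Amotl2, Lats2, Yap1 and Tead1. All YAP1 ChIP-seq peaks that overlapped a window were members, whatever their strength, so peaks entered by position alone. The windows themselves were chosen with earlier results of these data known. Together the windows span 605 kb and held 38 peaks, which merge into 15 of the 25223 regions of the series. The tumours were labelled MB, taken here as medulloblastoma, and came from female and male mice of 1 genotype, fSMO-M2;hGFAPcre. In these animals an activated form of Smoothened, the Hedgehog signal transducer, is turned on by Cre, which the human GFAP promoter drives in neural progenitors. All groups carry both alleles, there is no tumour-free or YAP1-deficient group, and the labels give no age. The title of the series poses a question about sex differences in YAP1 function. There were 2 female and 2 male libraries, numbered 1 and 2 by their titles, and nothing in the labels says whether they came from separate animals. For 2 of these libraries, male 1 and female 2, the title and the Sex tag of the labels name opposite sexes. The groups below follow the titles. Peak lists carry no expression values, so the tissue could not be checked against marker genes.

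In the Hippo pathway, the kinases LATS1 and LATS2 phosphorylate the co-activator YAP1 and so keep it out of the nucleus. YAP1 has no DNA-binding domain of its own and reaches chromatin mainly through the TEAD factors, which read the sequence GGAATG or its complement CATTCC. Some of its targets act back on the pathway. LATS2 and the angiomotin-family protein AMOTL2 restrain YAP1, while CCN1 and CCN2 are secreted matricellular proteins that serve as standard readouts of YAP1 activity. In the developing cerebellum, YAP1 is known as a gene that Hedgehog signalling turns on in granule neuron precursors, the cells from which this tumour type arises.

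Promoter sequences are shown first, because they hold the letters that TEAD factors read, whether or not a peak was called at the locus. RefSeq sequences on GRCm38.p6 matched 4 of the 6 genes, with 5 promoters. Ccn2 and Tead1 had no entry. GGAATG was searched on both strands and was the single motif searched. It was present in 4 of the 5 promoters, once in each, and absent from the second Lats2 promoter. Of all 32851 RefSeq promoters of the same length (300 bases), 14.7% hold it. The first 250 bases are printed for Ccn1 (minus strand, chr3:145649986-145650235), Amotl2 (plus strand, chr9:102717554-102717803) and Yap1 (minus strand, chr9:8004597-8004846), all 5′ to 3′ and all upstream of the annotated start. For Lats2 (minus strand, chr14:57746102-57746131) the motif begins at base 5 of the transcript, and 30 bases around it are printed. Capitals mark the motif.
Ccn1: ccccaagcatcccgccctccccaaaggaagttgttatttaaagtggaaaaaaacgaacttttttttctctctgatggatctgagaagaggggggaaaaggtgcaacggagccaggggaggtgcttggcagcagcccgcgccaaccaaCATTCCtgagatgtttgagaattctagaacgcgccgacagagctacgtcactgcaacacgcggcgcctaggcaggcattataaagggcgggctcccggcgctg
Amotl2: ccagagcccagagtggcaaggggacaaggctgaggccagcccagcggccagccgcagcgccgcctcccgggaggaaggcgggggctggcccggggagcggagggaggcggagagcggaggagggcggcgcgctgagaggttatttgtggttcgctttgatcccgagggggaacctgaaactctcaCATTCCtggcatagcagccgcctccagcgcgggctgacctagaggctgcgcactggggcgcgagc
Yap1: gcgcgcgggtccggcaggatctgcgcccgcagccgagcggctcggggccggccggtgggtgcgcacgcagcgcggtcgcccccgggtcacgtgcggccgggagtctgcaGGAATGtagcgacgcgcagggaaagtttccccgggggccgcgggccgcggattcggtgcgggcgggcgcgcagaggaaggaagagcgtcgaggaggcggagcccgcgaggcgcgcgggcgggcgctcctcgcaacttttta
Lats2: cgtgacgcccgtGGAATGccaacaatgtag
Counted back from the transcription start, with no base numbered 0, the motif begins at -103 in Ccn1, at -65 in Amotl2 and at -141 in Yap1. These coordinates are of GRCm38.p6 and were not carried to mm9, the build of the peaks. The sequences therefore cannot be placed under a peak, and they describe the genes and not the binding.

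Peaks were found at 3 of the 6 loci and in the same 3 in every library. Tead1, Lats2 and Amotl2 held at least 1 peak in all 4 lists. Ccn1, Ccn2 and Yap1 held 0 in all 4. The presence in every list was lost at −log10 q of at least 5, where male 1 had no peak at Tead1, female 2 and male 2 none at Lats2, and female 2 none at Amotl2. With each list at the length of the shortest by p-value, Tead1 alone kept a peak in all 4. In the Tead1 window there were 8 peaks in each female library, 1 in male 1 and 6 in male 2. In the order female 1, female 2, male 1 and male 2, the Amotl2 window held 4, 2, 1 and 2 peaks, and the Lats2 window 2, 2, 1 and 1. Male 1, the shortest list, had the fewest peaks at Tead1 and Amotl2.

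**Figure D1:**
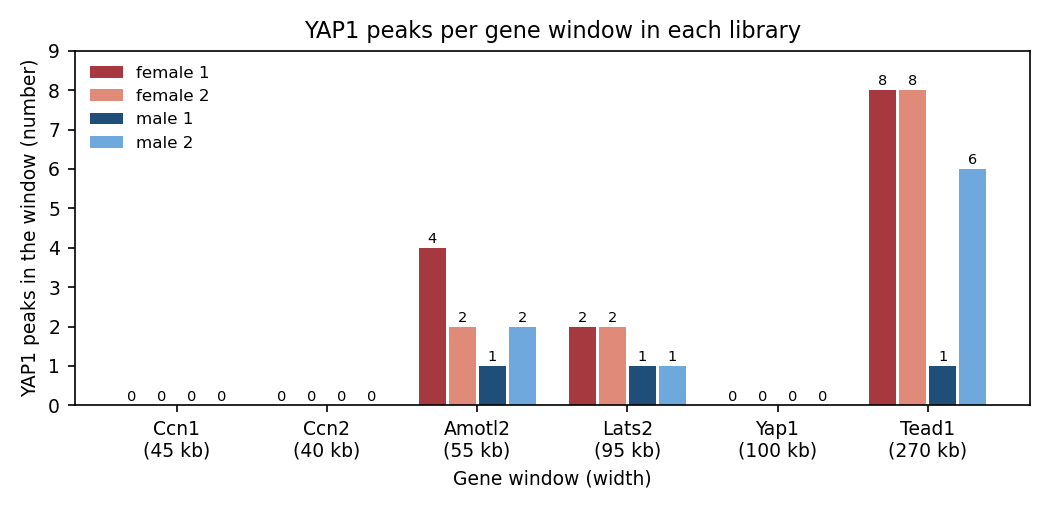
Number of YAP1 peaks (y axis) in each gene window (x axis, with the window width), 1 bar per library. Tead1, Lats2 and Amotl2 have bars in every library, from 1 to 8 peaks, and Ccn1, Ccn2 and Yap1 are at 0 throughout.

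Presence of a peak has to be read against how common peaks are. When chromosomes 1 to 19 and X were divided into consecutive stretches as wide as each window, unsequenced parts included, 21.5% of stretches of the Tead1 width (270 kb) held a peak of every list. The share was 8.23% for the Lats2 width (95 kb) and 4.77% for the Amotl2 width (55 kb). Most stretches are empty at the narrower widths: a peak of any list lay in 25.0% of stretches of the Ccn1 width (45 kb), 23.1% of the Ccn2 width (40 kb) and 40.9% of the Yap1 width (100 kb). The empty windows of Ccn1, Ccn2 and Yap1 thus share their state with most stretches of their size. The stretches were laid without regard to genes, while each window is laid over a gene. How often windows over other genes hold a peak was not tested.

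TEAD1 is a DNA-binding partner of YAP1, and its window, the widest of the 6, held the most peaks in 3 of the 4 libraries. In male 1 it tied with Lats2 and Amotl2 at 1. Per Mb, Amotl2 was denser than Tead1 in every library. It had 72.7 peaks against 29.6 in female 1, 36.4 against 29.6 in female 2 and 36.4 against 22.2 in male 2. In male 1 it had 18.2 against 3.70, but each window held 1 peak there, so that difference is one of window width alone. The Tead1 window from 119800000 to 120070000 on chromosome 7 held 9 merged regions, and peaks of 2 or more libraries lay in 7 of them. Of all 25223 merged regions, 52.7% were held by exactly 1 library and the rest by 2 or more. Few stretches of this width were as rich: at least as many peaks as in the Tead1 window were found in 3.81% of stretches for female 1, 3.42% for female 2 and 2.71% for male 2. For male 1, with its single peak there, the share was 25.5%. These stretches were not matched to windows over genes, so the shares do not compare Tead1 with other genes. On the table's GRCm38 assembly Tead1 overlaps no other protein-coding gene and lies between Parva and Rassf10.

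The strongest Tead1 region (region 1) lay on chromosome 7 from 119822443 to 119822893 and was present in all 4 libraries. The authors' fold enrichment at the peak was 6.64 for female 1 and 8.22 for female 2, and 3.46 and 9.0 for male 1 and male 2. Within its own list the peak ranked 324th of 16145 (female 1), 144th of 16769 (female 2), 2439th of 4155 (male 1) and 33rd of 9470 (male 2). It was thus among the first 2.01%, 0.859% and 0.348% of female 1, female 2 and male 2, and past the middle of the male 1 list (58.7%). The −log10 p was 23.8, 26.1, 8.14 and 28.7 in the same order.

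The female summits stood at 119822692 (female 1) and 119822690 (female 2), the male ones at 119822681 (male 1) and 119822769 (male 2), a range of 88 bp. Over the 1990 regions present in all 4 libraries, the median summit range was 129 bp, with quartiles of 73.0 and 246 bp, and 32.8% had a range as small or smaller. The spread at this region was thus an ordinary one, and the male 1 summit sat within 88 bp of the others. Peak widths were 421, 342, 270 and 451 bp in female 1, female 2, male 1 and male 2.

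To compare lists of unequal length, region 1 was also ranked among those same 1990 shared regions. It then ranked 242nd and 89th in female 1 and 2, and 1099th and 30th in male 1 and 2. Females had a mean rank of 165.5 ± 108 (SD, n = 2), males one of 564.5 ± 756 (SD, n = 2), and the ranks of the sexes overlapped (two-sided exact permutation p = 1.0). The spread between the male libraries was larger than the difference between the sexes.

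**Figure D2:**
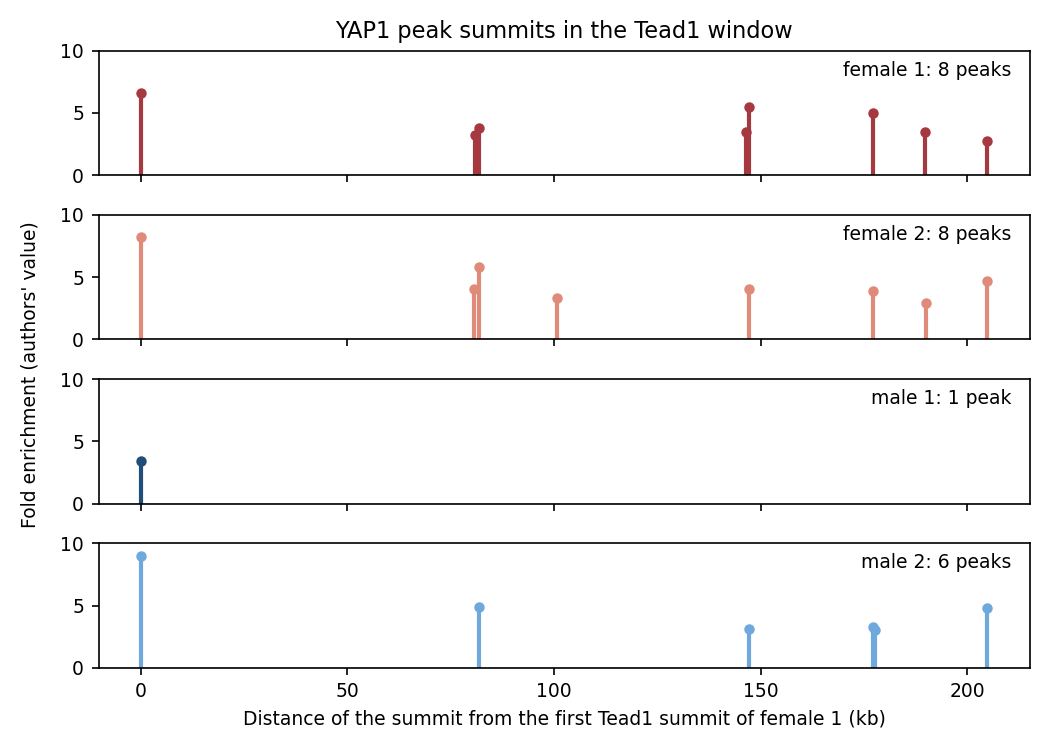
Fold enrichment (y axis, authors' value) of each YAP1 peak in the Tead1 window against the distance of its summit from the first Tead1 summit of female 1 (x axis, kb), 1 panel per library. The peak at 0 is the highest in both female libraries and male 2 (6.64, 8.22 and 9.0), and in male 1 it stands alone at 3.46.

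A gap of 80.3 kb without a peak in any list followed region 1, and the other 8 regions lay beyond it. Region 3 (119904276 to 119904700) was held by both females and male 2, with fold enrichments of 3.83, 5.81 and 4.92 in female 1, female 2 and male 2. Its summits (119904437, 119904517 and 119904494 in the same order) fell within 80 bp. It ranked 6647th in female 1 (41.2% of its list), 1121st in female 2 (6.68%) and 1476th in male 2 (15.6%). Its −log10 p followed the same order of libraries, at 9.99, 19.2 and 14.5.

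Region 6 (119969692 to 119970138) was the most closely placed of the Tead1 regions held by 3 or 4 libraries, with summits at 119969867 in female 1, 119969868 in female 2 and 119969842 in male 2. Fold enrichment was 5.49 in female 1, 4.02 in female 2 and 3.10 in male 2. Its rank by fold was 1023rd, 6744th and 7551st in these lists. By p-value the same peaks stood higher, at 354th, 2093rd and 3728th (−log10 p of 25.2, 16.4 and 10.4). In female 1 region 6 had the best p-value of the window, ahead of region 1, which ranked 446th by that measure.

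Region 7 (119999545 to 120000445) was the widest of the window. In female 2 it was a single peak of 901 bp, while male 2 split it into a peak of 206 bp and a peak of 233 bp. Its highest peak had a fold enrichment of 5.03 in female 1 (rank 1745), 3.86 in female 2 (rank 7832) and 3.26 in male 2 (rank 6950). The −log10 p was 15.4, 12.2 and 8.66, and the summits were at 119999833, 119999862 and 119999837, a range of 29 bp. The other male 2 peak reached 3.04-fold with its summit at 120000304.

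Region 9 (120027320 to 120027727) was held by both females and male 2. Fold enrichment was 2.74 in female 1, 4.71 in female 2 and 4.83 in male 2, at ranks 14256, 3445 and 1649, with −log10 p of 6.81, 15.8 and 15.8. The summits were at 120027612, 120027563 and 120027595. Within the female 1 list this was the weakest Tead1 peak by fold.

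Both female libraries and neither male library held Tead1 regions 2 and 8. Region 2 (119903153 to 119903515) was 3.21-fold in female 1 (rank 11162) and 4.02-fold in female 2 (rank 6751). Its summits, at 119903492 and 119903291, were 201 bp apart. Region 8 (120012402 to 120012768) was 3.51-fold in female 1 (rank 8943) and 2.95-fold in female 2 (rank 14056), with summits at 120012563 and 120012638. The −log10 p of these 4 peaks was between 4.96 and 9.98. They are weak to middling peaks, at 40.3% to 83.8% of the way down their lists. Region 2 ends 760 bp before region 3, where male 2 did have a peak. Regions 4 and 5 were held by 1 library each, female 2 (3.36-fold) and female 1 (3.48-fold), and region 5 ends 495 bp before region 6.

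LATS2, the kinase that inactivates YAP1, had 2 regions side by side on chromosome 14, within a window from 58290000 to 58385000. Region 1 (58364650 to 58365139) was held by female 1, female 2 and male 1. Region 2 (58365146 to 58365512) was held by female 1, female 2 and male 2. They are separated by 6 bp, so each male library had a peak at 1 side of the same short stretch, and the females at both. Stretches of this width (95 kb) with at least as many peaks made up 13.3% for female 1, 14.4% for female 2, 11.3% for male 1 and 21.2% for male 2. On the GRCm38 assembly Lats2 overlaps the gene model Gm52140 and lies between Xpo4 and Sap18.

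Lats2 region 1 was 8.21-fold in female 1, 3.82-fold in female 2 and 5.04-fold in male 1. Female 1 ranked it 114th (0.706% of its list). Male 1 ranked it 340th (8.18% of its list) and female 2 8097th (48.3%). By fold, this was the best rank that male 1 reached at any of the 6 loci. By p-value it ranked 1230th there, behind Amotl2 region 1 (1109th), and female 1 ranked region 1 of Lats2 545th. The −log10 p was 22.4, 8.10 and 9.81, and the summits at 58364929, 58364926 and 58364902 lay within 27 bp. Peak widths were 490 bp in female 1, 201 bp in female 2 and 180 bp in male 1.

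Lats2 region 2 was weaker where both were present. Its fold enrichment was 3.62 in female 1 (rank 8115), 2.78 in female 2 (rank 14992) and 3.63 in male 2 (rank 5313), with −log10 p of 8.12, 4.40 and 6.61. The summits, at 58365406, 58365282 and 58365240, spread over 166 bp. All 3 peaks were at or past the middle of their lists (50.3%, 89.4% and 56.1%).

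AMOTL2, which binds YAP1 and holds it at cell junctions, had 4 regions in its window on chromosome 9 from 102600000 to 102655000. Region 1 (102619631 to 102620645) was present in all 4 libraries and stood lower in both female lists than in both male lists. Fold enrichment was 2.80 and 2.56 for female 1 and 2, against 3.85 and 4.39 for male 1 and 2. The peak ranked 13898th of 16145, 15787th of 16769, 1619th of 4155 and 2651st of 9470 in these lists. The −log10 p was 8.08, 5.57, 10.1 and 11.6. For its width (55 kb), the share of stretches with at least as many peaks was 1.27% for female 1, 7.65% for female 2, 7.04% for male 1 and 3.67% for male 2. Amotl2 overlaps no other protein-coding gene on the GRCm38 assembly and lies between Anapc13 and Ryk.

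Fold enrichments are not comparable between lists, so this region was ranked among the 1990 regions shared by all lists. Its ranks were 1871 (female 1), 1907 (female 2), 769 (male 1) and 804 (male 2). Females had a mean rank of 1889.0 ± 25.5 (SD, n = 2), males one of 786.5 ± 24.7 (SD, n = 2), and the groups did not overlap (two-sided exact permutation p = 0.33, the smallest that 2 against 2 can give). As the groups did not overlap, the difference had to go the same way within both replicate numbers, which adds nothing further. Both male ranks were better than both female ranks for 13.6% of the 1990 shared regions, and the reverse held for 13.5%, so a split of this kind is common. By the Sex tag, each group would hold 1 high and 1 low library.

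The libraries did not place Amotl2 region 1 at the same point. The summit was at 102620463 for female 1, at 102620001 for female 2, at 102620243 for male 1 and at 102620111 for male 2. They spread over 462 bp, and 8.39% of the 1990 shared regions had a range as wide or wider. The peak of female 1 starts at 102620121, past the summits of female 2 and male 2. The 4 peaks all overlap one another, with their highest points apart.

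**Figure D3:**
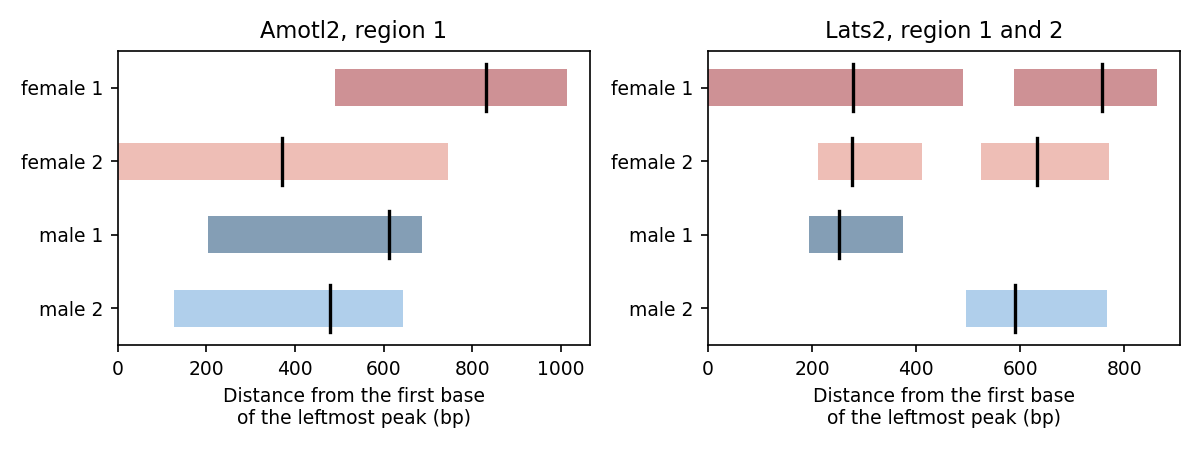
Extent of each peak (bars, 1 row per library) and its summit (black line) in Amotl2 region 1 and in Lats2 regions 1 and 2, against the distance from the first base of the leftmost peak (x axis, bp). Amotl2 summits spread over 462 bp, and in Lats2 male 1 has a peak on the left side and male 2 on the right.

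Amotl2 region 2 (102626500 to 102626762) was held by both females and male 2. It was 4.0-fold in female 1 (rank 5578), 3.00-fold in female 2 (rank 13721) and 4.36-fold in male 2 (rank 2733). Its −log10 p was 10.8, 4.70 and 8.72, and the summits were at 102626625, 102626728 and 102626605. Female 1 alone held regions 3 and 4, at 4.40-fold (102628573 to 102628930, summit at 102628836, rank 3590) and 2.86-fold (102639827 to 102640059, rank 13622). Region 3 had the highest fold enrichment of female 1 in this window and was in no other list.

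**Figure D4:**
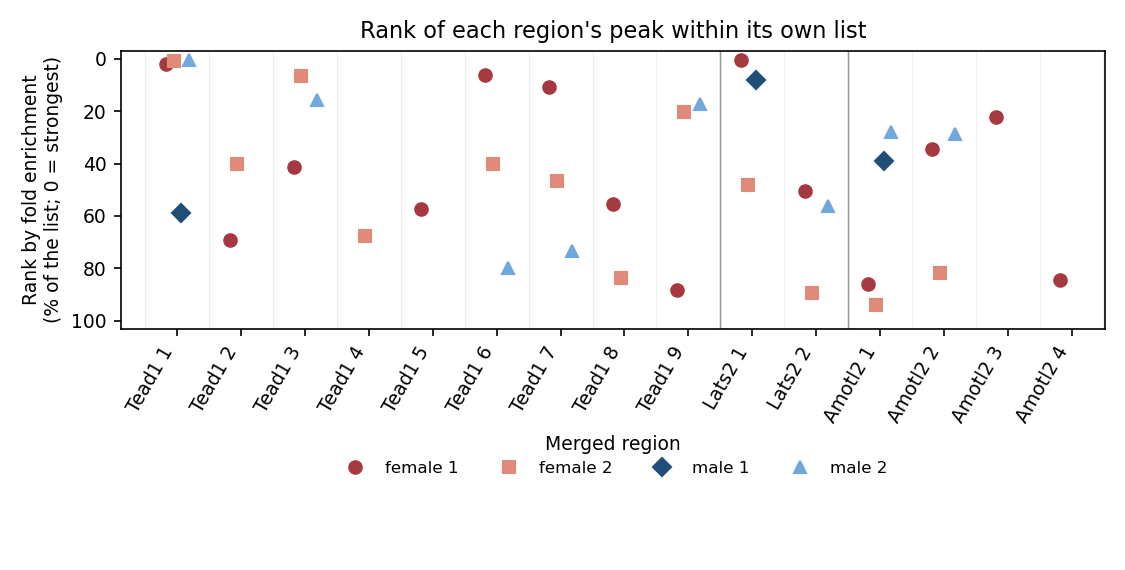
Rank by fold enrichment as a percent of the list (y axis, 0 for the strongest peak) of the highest peak in each of the 15 regions (x axis), with 1 symbol per library. Tead1 region 1 is near the top in both females and male 2, and Amotl2 region 1 is lower in both females (86.1% and 94.1%) than in both males (39.0% and 28.0%).

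CCN1 and CCN2, the secreted YAP1 targets, had no peak in their windows on chromosome 3 (145290000 to 145335000) and chromosome 10 (24295000 to 24335000). The nearest peak to the Ccn1 window lay 50.8 kb before it in female 1, 50.6 kb in female 2 and 50.6 kb in male 2, at one and the same place (145239041 to 145239240 in female 1). It was 4.63-fold, 4.43-fold and 4.53-fold in these lists. In male 1 the nearest peak was 508 kb away. For Ccn2 the nearest peak was 496 kb away for female 1, 116 kb for female 2, 604 kb for male 1 and 255 kb for male 2, each on the side of higher coordinates, and no 2 of these 4 peaks overlapped.

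YAP1 itself, the protein precipitated here, had no peak over its own gene window on chromosome 9 (7920000 to 8020000). The nearest peaks followed the window by 22.6 kb in female 1, 22.8 kb in female 2 and 22.6 kb in male 2, at 2.70-fold, 2.56-fold and 3.02-fold. These are weak peaks, at ranks 14486, 15787 and 7789. On the other side a peak stood in all 4 lists, 82.4 kb (female 1), 82.4 kb (female 2), 82.6 kb (male 1) and 82.5 kb (male 2) before the window. It was 4.10-fold, 5.72-fold, 3.96-fold and 3.08-fold in that order. An absent peak says that no peak passed the authors' threshold, near q = 0.05, and not that YAP1 was absent. The read depth that set this limit is unknown, because the lists carry no counts.

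Across the 6 loci together, the female libraries had 14 (female 1) and 12 (female 2) peaks and the male ones 3 (male 1) and 9 (male 2). Both females had more peaks than both males, with a mean of 13 ± 1.41 (SD, n = 2) against 6.0 ± 4.24 (SD, n = 2). A two-sided exact permutation test on the log2 of each number plus 1 gave p = 0.33, the smallest possible. After 1 was added to each number, the ratio of the geometric means (female to male) was 2.21. Without male 1 it was 1.40 and without male 2 it was 3.49. As the female lists are longer throughout, the numbers were also set against list length. The windows held 0.0867% of the peaks of female 1, 0.0716% of female 2, 0.0722% of male 1 and 0.0950% of male 2. These shares overlapped between the sexes (means of 0.0791% ± 0.0107 and 0.0836% ± 0.0161, SD, n = 2; two-sided exact permutation p = 0.67). Within replicate number 1 the female to male ratio of peaks in the windows was 4.67, against 3.89 for whole lists. Within number 2 it was 1.33, against 1.77.

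The regions at these loci were often held by several libraries. All 4 libraries held 2 of the 15 (13.3%), against 7.89% of all 25223 merged regions, and exactly 3 libraries held 7 (46.7%), against 17.7%. The 7 include Lats2 regions 1 and 2, only 6 bp apart. Joined, they would be a single region held by all 4 libraries. Both females and neither male held 2 (13.3%), against 11.1%. Both males and neither female held 0, against 0.0912%. Without male 1, 8 of the 15 were in all 3 remaining libraries, and without male 2, 8 were in both females and not in male 1. Shares over all merged regions were not computed with a library left out. These counts restate how many regions of both females male 2 held and male 1 lacked, which are set against all such regions below. Every region that a male library had here was also in a female list (9 of 9), against 82.5% of all male regions. Of the 11 regions that both females held, male 2 had 8 (72.7%) and male 1 had 3 (27.3%), close to the 63.4% and 27.7% over all such regions. With 15 regions at 3 loci these shares move by several percentage points with a single region, and they describe the loci without a test.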

How the data were processed

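YAP1 ChIP-seq was done on frozen tumour tissue of 2 female and 2 male libraries, per the labels' protocols. The other 2 of the 6 libraries, pooled inputs, were left out. The submitters' processing notes name BWA, HOMER 4.11 and mm9 without saying what each was used for. The peak caller and control were not given in the sources used here. For each peak of a library the authors deposited a fold enrichment (a ratio over an undescribed background), the −log10 of p and of q, a score that was not used further, and the summit. The lists held 16145 (female 1), 16769 (female 2), 4155 (male 1) and 9470 (male 2) peaks, with a lowest −log10 q between 1.30 and 1.35. Depth is unknown.

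Peaks overlapping a window were taken, positions are 1-based, and peaks of the 4 lists overlapping by at least 1 bp were chained into regions. In a region with several peaks of a list, the one of highest fold was used. Fold values rank peaks within a list only. Named in full were regions held by 3 or 4 libraries, the best-ranked region of each locus, and regions of both libraries of 1 sex alone. Sexes were compared with exact permutation tests over libraries, and paired by replicate number, which goes with a shared code in the descriptions, with a sign-flip test. Deviations could not be correlated without counts. No mm9 annotation was used, so the windows are as given and a planned wider list of pathway genes was not placed. The windows, members and lists were chosen with earlier results of these data known. Ranks among shared regions and shares of stretches with a peak of every list, or with as many peaks as a window, were chosen after seeing the data. Merging was tested on simulated data with regions set far apart. That setting does not cover close neighbours, such as the Lats2 regions 6 bp apart. Python 3.11.15, pandas 2.3.3, numpy 2.4.6 and matplotlib 3.10.9 were used.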

Additional observations from a re-analysis of the deposited data

How the results depend on the processing

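The excess of peaks in the female libraries was smaller with lists of equal length. The female to male ratio of 2.21 was 1.63 at −log10 q of at least 5, 1.02 with each list at the length of the shortest by p-value, and 1.97 with windows 50 kb wider on each side. Leaving out each library in turn gave 1.40 to 3.49, and with groups from the Sex tag it was 0.679. The groups from the tag are the libraries of replicate number 1 against those of number 2. Sex by the tag and replicate number therefore cannot be told apart. The ratio of list shares (0.946) was 0.567 at −log10 q of 5 or more (exact permutation p = 0.33), where both male shares were above both female shares, 0.813 with wider windows, 0.954 by the Sex tag, 1.00 at equal list length, and 0.833 to 1.10 when each library was left out. With a replicate block, pairing by number, the ratios were 2.21 (exact sign-flip p = 0.50, the smallest for 2 pairs) and 0.946 (exact p = 1.0), and no call changed.

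Counts of 2, 2 and 0 regions (all 4 libraries, female pair alone, male pair alone) became 0, 0 and 1 at the stricter threshold (−log10 q of 5 or more), and 1, 0 and 1 at equal length. They were 1, 1 and 0 when overlaps had to cover 50% of both peaks, and also with summits within 200 bp. With each library left out they ranged from 2 to 8, from 3 to 8 and stayed at 0, since the rule loosens. Shares over all merged regions were not computed at these altered settings, so the counts here have no background to be read against. The male region at the stricter settings was Amotl2 region 1, whose female peaks were removed. By p-value most of the best ranks per locus were further down: for Tead1 426 against 144 by fold in female 2 and 108 against 33 in male 2, and for Lats2 545 against 114 in female 1 and 1230 against 340 in male 1. The best rank of male 1 then lay at Amotl2 (1109). No locus kept a peak in every list at −log10 q of 5 or more, and at equal list length Tead1 alone did. Ranks among shared regions by p-value, an alternative added after seeing the data, kept the direction for Amotl2 region 1 (979.5 against 1102.5, female minus male) and Tead1 region 1 (-348.5 against -399.0). The windows of Ccn1 and Ccn2 stayed empty in all lists when widened, and the Yap1 window gained 1 peak each in female 1, female 2 and male 2. For Ccn1 this depends on the 50 kb chosen. Peaks of female 1, female 2 and male 2 lay 50.8, 50.6 and 50.6 kb before its window, just outside the widened one.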
